A study of Homo sapiens with 2 samples.

Results

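The genes described are 10 genes of transforming growth factor beta (TGF-beta) and bone morphogenetic protein (BMP) signaling, taken by their symbols from 27685 genes in the deposited expression tables. They comprise the ligand genes TGFB1, TGFB2, INHBA, BMP4 and BMP7, the receptor genes TGFBR1 and TGFBR2, and the response genes TGFBI, ID1 and ID3. All 10 were listed, with 25 of the 63714 transcripts. RNA-seq was performed on 1 library of H2087 cells and 1 library of H596 cells. Both are established human lung cancer cell lines, labelled as lung adenocarcinoma and left untreated, in the same medium with fetal bovine serum. The study used RNA-seq of H2087 cells to find highly expressed genes, with an FPKM (read fragments scaled by transcript length and library size) of at least 100, in the choice of regulatory variants. Its text does not describe the H596 library.

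TGF-beta, the activins and the BMPs are secreted dimers of one protein family. A dimer brings together type II and type I receptor kinases on the cell surface, and the type I receptor phosphorylates SMAD proteins, which enter the nucleus with SMAD4 and act on target genes. TGF-beta and activins act mainly through SMAD2 and SMAD3, and BMPs through SMAD1, SMAD5 and SMAD9. In lung epithelium, TGF-beta restrains proliferation and can drive epithelial-mesenchymal transition, while BMP signaling takes part in airway and alveolar development. ID1 and ID3 are among the best known direct BMP targets.

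With 1 library per cell line, no value has a replicate check and no test between the cell lines was possible. Each FPKM is given with a 95% Wilson interval from its estimated read count, and each ratio with an exact 95% binomial interval of the counts. These intervals cover counting error only, and they are too narrow if both mates of a read pair were counted. The estimated counts summed to 46961500 in H2087 and 55387847 in H596. The labelled cell type was checked with marker lists. Of 7 lung adenocarcinoma and surfactant markers, the summed FPKM was 346 in H2087 and 0.749 in H596, and the highest in H596 was NKX2-1, with 0.508 against 110.0. SFTPA1, whose reads may be shared with its near-identical copy SFTPA2, had an FPKM of 82.9 and 0 counts, respectively. Of 6 squamous markers, the summed FPKM was 1.956 in H2087 and 4034 in H596, and KRT5 and DSG3 had 0 counts in H2087. The 7 lung adenocarcinoma and surfactant markers were thus absent or nearly so in H596. In H2087, SFTPB (22 counts) and SFTPC (0 counts) were also absent or nearly so. The 6 epithelial markers summed to 7879 in H2087 and 3686 in H596. The 6 fibroblast markers summed to 3.97 and 10.7, with COL1A2 at 0 counts in both libraries and DCN making up 9.77 in H596. The 4 leukocyte markers summed to 131.9 and 25.6. PTPRC and CD3E had 0 counts in both libraries, while CD68, with FPKM values of 128 (H2087) and 25.6 (H596), and CD79A, with 223 and 6 counts, were at least 2-fold lower in H596. The part of these differences in the results below was not tested.

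An FPKM of 1 was reached by 8 of the 10 genes in H2087, against 45.3% of all genes, and by all 10 in H596, against 45.5%. The response genes were the most abundant group in each library. In H2087 the order was TGFBI, ID1, ID3, TGFB1, TGFBR2, TGFBR1, BMP4, TGFB2, INHBA and BMP7, and the intervals of TGFB1 and TGFBR2 overlapped, as did those of TGFBR1 and BMP4. In H596 it was ID1, TGFBI, ID3, BMP4, BMP7, TGFB1, TGFBR2, TGFBR1, TGFB2 and INHBA, with overlapping intervals for BMP7 and TGFB1 and for TGFBR2 and TGFBR1. At the study's threshold of 100, TGFBI passed in H2087, and TGFBI, ID1 and ID3 passed in H596. Of all genes, 2.54% and 2.30% passed, respectively.

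**Figure D1:**
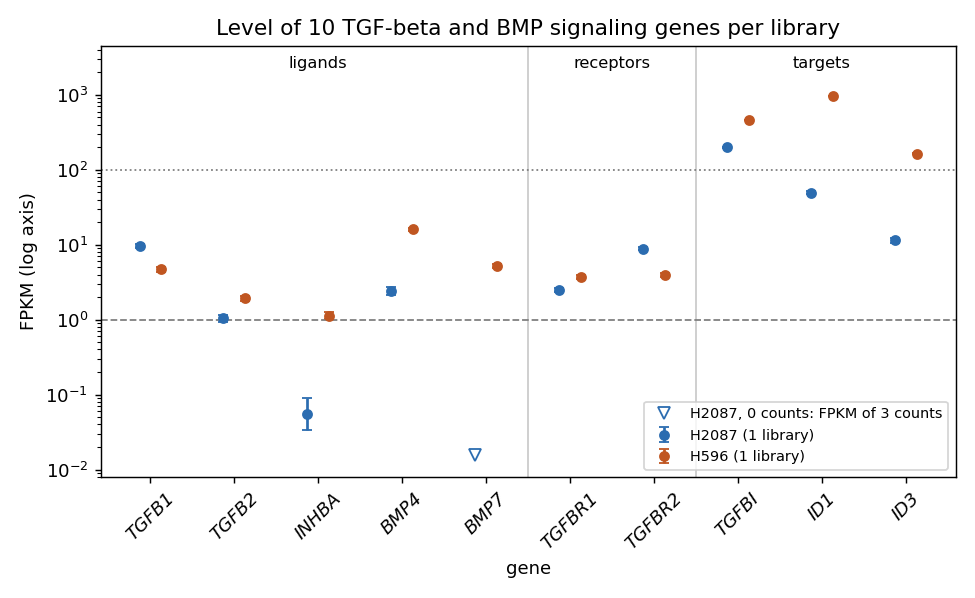
FPKM (log axis) of the 10 genes in the H2087 and H596 libraries, with 95% Wilson counting intervals; the dotted line marks an FPKM of 100 and the dashed line 1. The open triangle is the FPKM of 3 counts for BMP7 in H2087, which had 0 counts. ID1, ID3, BMP4, BMP7 and INHBA lie far apart between the libraries, and TGFB1 and TGFBR2 are lower in H596.

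Differences between the libraries were taken as log2(FPKM + 1) in H596 minus that in H2087, a scale that understates the change of low genes. They were read against 13047 genes whose mean FPKM reached 1, of which 32.4% differed at least 2-fold, 18.2% being higher and 14.2% lower in H596. Of the 10 genes, 9 reached this mean. BMP7 reached it through H596 alone, so it had to differ. Among the 9, TGFBI, ID1, ID3, BMP4 and BMP7 were at least 2-fold higher in H596 and 0 were at least 2-fold lower. INHBA, with a mean FPKM of 0.593, was not among the genes compared. The median of all genes compared was 0.12 and that of the 9 was 1.197. When the libraries were scaled by the trimmed mean of M-values (TMM), which brought the median of all genes to 0.00, TGFB1 and TGFBR2 also passed 2-fold, and the split became 5 higher and 2 lower.

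Among the BMP ligands, BMP4 and BMP7 were higher in H596. BMP4 (gene ID 652, chr14:54416455-54423609 of hg19, minus strand) encodes a ligand that patterns the lung bud. It had an FPKM of 2.42 (95% interval, 2.12 to 2.76) from 226 counts in H2087 and 16.2 (15.5 to 17.0) from 1782 counts in H596. It was 6.69-fold higher in H596 (95% interval, 5.82 to 7.72), a difference of 2.33 on the log2 scale. BMP7 (gene ID 655, chr20:55743809-55841707, minus strand) encodes a ligand known from kidney and skeletal development. It had 0 counts in H2087, which allows an FPKM of up to 0.0155 with 3 counts, and 5.24 (4.95 to 5.55) from 1199 counts in H596. The H596 value was thus 338-fold the limit of 0.0155, a ratio that leaves out counting error in H596. The antisense gene BMP7-AS1, which lies within BMP7, had 0 counts in both libraries.

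The wider list of BMP ligands held 18 genes, of which 6 were compared and 5 were at least 2-fold higher in H596, with a median of 2.49. That is 83.3%, against 18.2% of all genes compared. Besides BMP4 and BMP7, the 5 were BMP2, BMP3 and AMH. BMP2, a close relative of BMP4, had an FPKM of 0.1003 from 16 counts in H2087 and 7.09 in H596, a 70.6-fold difference (43.3 to 124). BMP3, which opposes other BMPs, had 0.0438 from 13 counts and 6.84, a 156-fold difference (91.3 to 294). AMH, the anti-Mullerian hormone, was 2.66-fold higher (2.28 to 3.12). BMP5 went the other way, with an FPKM of 0.885 from 169 counts in H2087 and 0 counts in H596, but its mean was too low for the comparison. BMP8B differed by 0.13, though its reads may be shared with BMP8A. Of the 18 genes, 5 had 0 counts in both libraries. Of the ligands compared, BMP2, BMP3 and BMP7 had an FPKM below 1 in H2087 and were compared through H596 alone.

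The TGF-beta and activin ligands did not move together. TGFB1 (gene ID 7040, chr19:41836228-41859788, minus strand), the most widely expressed TGF-beta isoform, had an FPKM of 9.60 (9.09 to 10.1) from 1262 counts in H2087 and 4.71 (4.39 to 5.07) from 734 counts in H596. It was 2.04-fold higher in H2087 (1.86 to 2.23), a difference of -0.89 on the log2 scale. TGFB2 (gene ID 7042, chr1:218518626-218617961, plus strand), an isoform prominent in embryonic development, had 1.05 (0.934 to 1.17) from 298 counts in H2087 and 1.93 (1.79 to 2.08) from 647 counts in H596, a 1.84-fold difference (1.60 to 2.12). Both differences exceeded counting error and lay within 2-fold on the log2(FPKM + 1) scale. The ratio of TGFB1 to TGFB2, in FPKM, was 9.18 (8.08 to 10.4) in H2087 and 2.44 (2.20 to 2.72) in H596.

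INHBA (gene ID 3624, chr7:41724712-41742706, minus strand) encodes the beta A subunit that forms activin A. It had an FPKM of 0.0550 (0.0339 to 0.0894) from 16 counts in H2087 and 1.13 (1.02 to 1.25) from 390 counts in H596, a 20.5-fold difference (12.5 to 36.3) at a low level. The overlapping antisense gene INHBA-AS1 had 0 and 3 counts. INHBB, the gene for the beta B subunit, showed the same direction, with 0.258 in H2087 and 6.09 in H596, a 23.6-fold difference (17.2 to 33.2). In the list of 14 TGF-beta and activin ligands, 6 were compared, of which 1 was at least 2-fold higher and 3 at least 2-fold lower in H596. These are 16.7% and 50.0%, against 18.2% and 14.2% of all genes compared. The 1 higher gene, INHBB, reached the mean FPKM of 1 through H596 alone. The 3 lower genes were GDF11, GDF15 and INHBE, of which INHBE reached that mean through H2087 alone. GDF15, a stress-induced cytokine, had the highest level of the list, with FPKM values of 133 (H2087) and 32.8 (H596), and was 4.06-fold higher in H2087 (3.88 to 4.24). GDF11, a relative of myostatin, was 3.37-fold higher in H2087 (2.99 to 3.81).

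Of the TGF-beta receptors, TGFBR2 was lower and TGFBR1 was higher in H596. TGFBR1 (gene ID 7046, chr9:101867371-101916473, plus strand) encodes the type I receptor kinase. It had an FPKM of 2.47 (2.31 to 2.65) from 774 counts in H2087 and 3.70 (3.51 to 3.90) from 1363 counts in H596, a 1.49-fold difference (1.37 to 1.63). TGFBR2 (gene ID 7048, chr3:30647994-30735633, plus strand) encodes the type II receptor, which binds the ligand first. It had 8.91 (8.52 to 9.31) from 1986 counts in H2087 and 3.99 (3.76 to 4.24) from 1052 counts in H596, and was 2.23-fold higher in H2087 (2.07 to 2.41), a difference of -0.99. The ratio of TGFBR2 to TGFBR1 was 3.60 (3.31 to 3.92) in H2087 and 1.08 (0.995 to 1.17) in H596, where the counts did not separate the receptors.

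Of 7 type I receptors, 5 were compared. Of these 5, 1 was at least 2-fold higher in H596, against 18.2% of all genes compared. It was BMPR1B, a BMP receptor, with FPKM values of 0.499 (H2087) and 2.83 (H596). BMPR1B reached the mean FPKM of 1 through H596 alone. Of 5 type II receptors, 4 were compared and 0 differed at least 2-fold, against 32.4% of all genes compared. The closest to 2-fold was TGFBR2, at -0.99, which passed it with TMM scaling. ACVR2A, an activin receptor, differed by 0.72 and BMPR2, the main BMP type II receptor, by 0.60. Among 7 co-receptors and decoys, 4 were compared. Of these, 2, or 50.0% against 18.2% of all genes compared, were at least 2-fold higher in H596, namely TGFBR3 and BAMBI. Both reached the mean FPKM of 1 through H596 alone, so they had to be higher there. TGFBR3 (betaglycan), which presents TGF-beta 2 to its receptors, had an FPKM of 0.150 from 48 counts in H2087 and 4.64 in H596, a 31.0-fold difference (23.3 to 42.2). BAMBI, a pseudoreceptor that lacks a kinase domain, had 4 counts in H2087 and 1344 in H596, or FPKM values of 0.0480 and 13.7, a 286-fold difference (111 to 1050.5).

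On the log2(FPKM + 1) scale, ID1 and ID3 held the largest differences of the 10 genes. ID1 (gene ID 3397, chr20:30193086-30194317, plus strand) encodes an inhibitor of DNA binding, a helix-loop-helix protein that pairs with E proteins and keeps them off DNA. It had an FPKM of 49.5 (47.6 to 51.5) from 2409 counts in H2087 and 969.6 (962 to 978) from 55735 counts in H596. It was 19.6-fold higher in H596 (18.8 to 20.4), a difference of 4.26 that 0.629% of the genes compared exceeded. ID1 ranked 1540 among all genes in H2087 and 35 in H596, where it held 0.101% of all counts. ID3 (gene ID 3399, chr1:23884421-23886285, minus strand), a paralog of ID1, had 11.4 (10.6 to 12.3) from 680 counts in H2087 and 163 (160.2 to 166) from 11470 counts in H596. It was 14.3-fold higher in H596 (13.2 to 15.4), a difference of 3.72 that 1.09% of the genes compared exceeded. The ratio of ID1 to ID3 was 4.33 (3.98 to 4.72) in H2087 and 5.94 (5.83 to 6.06) in H596.

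The reference sequence before ID1 is shown because ID1 differed most of the 10 genes on this scale. It is 250 bases of hg19, 5′ to 3′ on the plus strand, and ends at the base before the start given by the RefSeq promoter table, placed in hg19 by exact match. That start lies 6 bases after the first base of the deposited ID1 transcripts. Capitals mark, on either strand, GGCGCC and CAGAC, motifs bound by SMADs, and TATAAA and CCAAT, core promoter motifs.
ID1, chr20:30192842-30193091: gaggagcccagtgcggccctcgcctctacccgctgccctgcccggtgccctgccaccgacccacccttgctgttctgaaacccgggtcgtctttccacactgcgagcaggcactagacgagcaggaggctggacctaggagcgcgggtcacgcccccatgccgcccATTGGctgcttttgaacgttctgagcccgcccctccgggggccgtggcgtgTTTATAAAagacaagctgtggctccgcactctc

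The ID1 window held TATAAA on both strands, overlapping, from 33 bases before the start, and CCAAT on the other strand at 84 bases before it. The window held neither GGCGCC nor CAGAC. Of its bases, 88 lie in a GENCODE exon of an unnamed gene on the minus strand, and 6 lie in an exon of ID1 itself. Of 27305 RefSeq promoters, the 250 bases before the start held TATAAA in 11.1%, CCAAT in 33.0%, CAGAC in 37.8% and GGCGCC in 16.1%. The window had a GC content of 66.0%, against a median of 58.0%.

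The list of BMP target genes held 11 genes, of which 10 were compared. Of these, 8, or 80.0%, were at least 2-fold higher in H596, against 18.2% of all genes compared. At least 2-fold lower were 0, against 14.2%, and the median was 2.80, against 0.12. All 4 ID genes were among the 8. ID2 had FPKM values of 0.978 (H2087) and 14.2 (H596), a 14.5-fold difference (11.2 to 18.9), and ID4 had 1.18 and 16.1, a 13.6-fold difference (11.9 to 15.7). The inhibitory SMAD6, which dampens BMP signaling, had 0.411 from 57 counts and 7.98, a 19.4-fold difference (14.9 to 25.8). ATOH8, a transcription factor, had 0 counts in H2087 and 1210 in H596. Its H596 value was 341-fold the FPKM of 3 counts in H2087. MSX2, a homeobox gene, was 11.1-fold higher (8.30 to 15.2). MSX1 stood apart, with 95 counts in H2087 and 0 in H596, and was not among the genes compared. SMAD7 and HEY1 differed by 0.89 and 0.35. Of the 10 genes compared, 6 had an FPKM below 1 in H2087, so all but SMAD7 of these 6, namely ID2, SMAD6, BAMBI, ATOH8 and MSX2, passed 2-fold after entering the comparison through H596 alone.

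**Figure D2:**
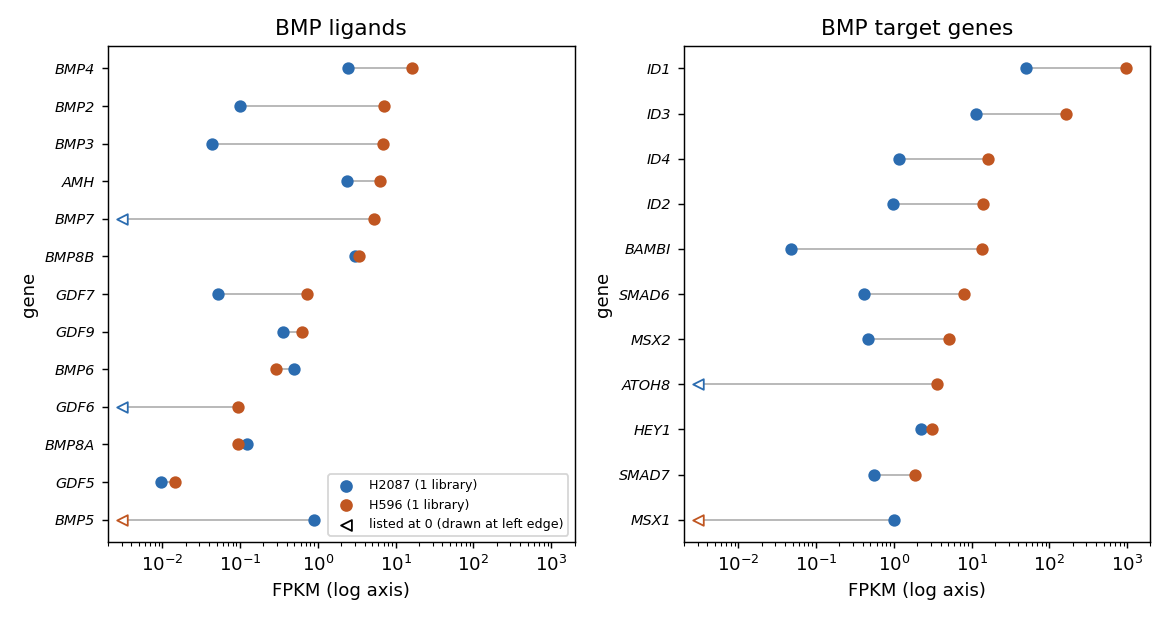
FPKM (log axis) of the BMP ligand genes and BMP target genes with a count above 0, in H2087 and H596, ordered by the H596 level; open triangles at the left edge mark a gene listed at 0. The target genes lie to the right in H596 except MSX1, and among ligands that reached an FPKM of 1 in H596, BMP8B alone lies close in both libraries.

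TGFBI (gene ID 7045, chr5:135364584-135399507, plus strand) encodes a secreted matrix protein named for its induction by TGF-beta. It had an FPKM of 200.03 (198 to 202) from 26894 counts in H2087 and 459.8 (457 to 463) from 73192 counts in H596. It was high in both libraries, at rank 300 in H2087 and 109 in H596, and 2.30-fold higher in H596 (2.27 to 2.33), a difference of 1.197 that 13.96% of the genes compared exceeded. Other TGF-beta targets were mixed. Of 12 listed, 11 were compared, of which 4 were at least 2-fold higher and 1 was lower in H596, with a median of 0.87. These are 36.4% and 9.09%, against 18.2% and 14.2% of all genes compared. The 4 higher genes were TGFBI, CDKN2B, CDKN1A and JUNB. The cyclin-dependent kinase inhibitor genes CDKN1A and CDKN2B were 11.0-fold (10.2 to 11.9) and 7.48-fold (6.63 to 8.46) higher. COL1A1, a fibrillar collagen gene that was also on the fibroblast list, was 4.25-fold higher in H2087 (3.74 to 4.84). PMEPA1, a feedback inhibitor, had FPKM values of 1.90 (H2087) and 1.61 (H596).

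Between receptor and target, all 8 SMAD genes had counts above 0 in both libraries. SMAD6 (0.411), SMAD7 (0.549) and SMAD9 (0.442) had an FPKM below 1 in H2087, as had SMAD9 (0.230) in H596. Of the 8, 7 were compared, with 2 at least 2-fold higher and 1 lower in H596. These are 28.6% and 14.3%, against 18.2% and 14.2% of all genes compared. SMAD3 had the highest level, with FPKM values of 30.1 (H2087) and 36.8 (H596). SMAD4, the shared partner, was 2.51-fold higher in H596 (2.35 to 2.68), and SMAD5, which transmits BMP signals, was 2.47-fold higher in H2087 (2.36 to 2.57). Of 9 intracellular regulators, such as SKI and SMURF2, all were compared and 0 differed at least 2-fold, against 32.4% of all genes compared. Of 10 genes for latency and activation of TGF-beta, 9 were compared, with 2 higher and 1 lower, or 33.3% at least 2-fold different against 32.4% of all genes compared. The 2 higher genes, LTBP1 and ITGB8, reached the mean FPKM of 1 through H596 alone. LTBP1, which anchors latent TGF-beta in the matrix, had FPKM values of 0.392 (H2087) and 14.01 (H596), a 35.7-fold difference (29.7 to 43.3). ITGB8, an integrin subunit that takes part in activating latent TGF-beta, had 0.299 and 17.9, a 60.04-fold difference (50.4 to 72.2). LTBP3 was 2.07-fold higher in H2087 (2.01 to 2.13).

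Of 15 extracellular antagonists, 5 were compared. Of these 5, 3 were at least 2-fold higher in H596, against 18.2% of all genes compared. Among the 3, FST and DCN reached the mean FPKM of 1 through H596 alone. FST (follistatin), which binds activins, had an FPKM of 0.148 from 15 counts in H2087 and 8.17 in H596, a 55.3-fold difference (33.4 to 99.3). TWSG1, a modulator of BMPs, was 3.70-fold higher (3.48 to 3.94). DCN (decorin), a matrix proteoglycan, had 0 counts in H2087 and 2361 in H596. The BMP antagonists NOG and GREM1 had 8 and 20 counts in H2087 and 0 in H596, and CHRD had 77 and 3. SOSTDC1 and BMPER went the other way, with 0 counts in H2087 and 22 and 2 in H596. NBL1, the most abundant of the list, had FPKM values of 35.2 (H2087) and 42.6 (H596). Of the 3 E-protein genes whose products pair with ID proteins, TCF3 and TCF12 differed by 0.26 and 0.42, and TCF4 had 0 counts in H2087 and 1077 in H596. Over the 113 genes of all lists, 73 were compared. Of these, 45.2% differed at least 2-fold, against 32.4% of all genes compared. Higher in H596 were 27 genes, or 37.0% against 18.2%, and lower were 6, or 8.22% against 14.2%. Of the 73 genes, 17 had an FPKM below 1 in H2087 and entered the comparison through H596 alone, as did 904 of all 13047 genes. All of the 17 but SMAD7 were among the 27, including INHBB, BMPR1B, SMAD6 and TCF4. INHBE and COL1A1, among the 6 lower genes, entered through H2087 alone.

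**Figure D3:**
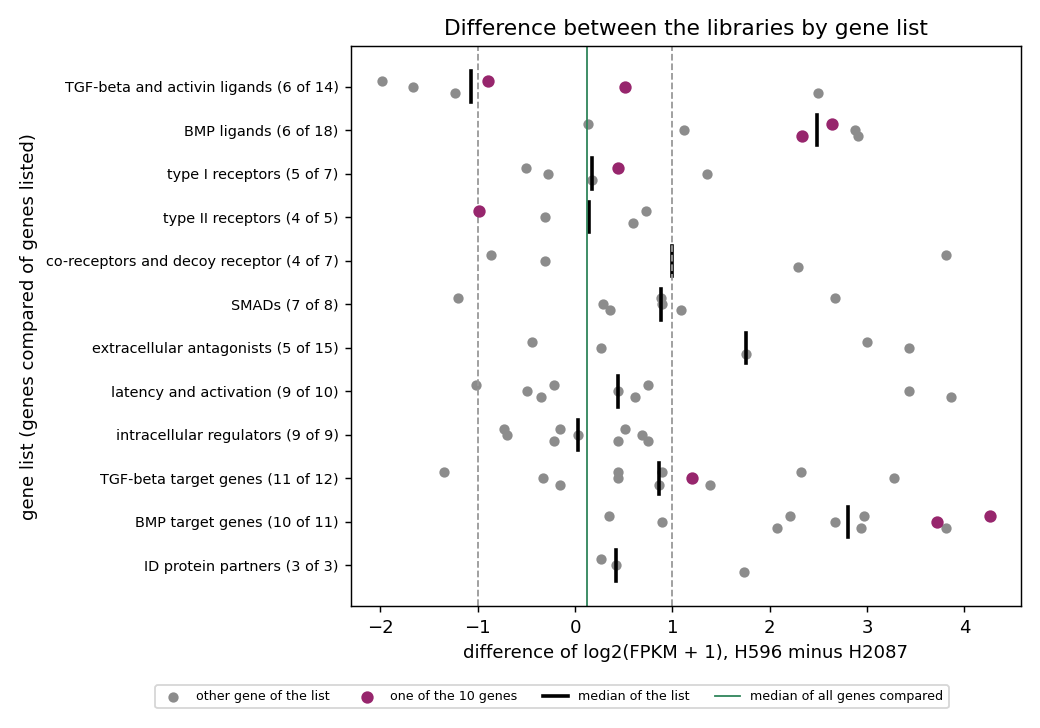
Difference of log2(FPKM + 1), H596 minus H2087, for the genes compared in each list, with the 10 genes marked in purple; dashed lines mark a 2-fold difference, black bars the median of each list and the green line the median of all genes compared. BMP ligands and BMP target genes lie mostly to the right of the upper dashed line, and all type II receptors and intracellular regulators lie between the dashed lines. A gene on 2 lists is drawn in each.

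Transcripts differed in ways that the gene values do not show. For TGFB2, 4 transcripts were listed. The coding transcripts NM_003238 and NM_001135599 together had FPKM values of 1.05 (H2087) and 1.08 (H596). The noncoding transcripts NR_138148 and NR_138149 had 0 counts in H2087 and made up 44.3% of the TGFB2 value in H596. By this division, the difference in the gene value lay in transcripts annotated as noncoding. The antisense gene TGFB2-AS1, which overlaps the start of TGFB2, had 9 and 3 counts, and TGFB2-OT1, on the same strand within TGFB2, had 8 and 10. The libraries were stranded, but whether strand was used in counting is not stated. The 4 transcripts share most of their sequence, and the division of reads between them is an estimate whose error the intervals do not cover. The same holds for the division of reads in BMP4, TGFBR1, TGFBR2 and ID1 below.

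For BMP4, 9 transcripts begin at 4 positions. The 4 transcripts from the first start, 54423609, made up 68.7% of the BMP4 value in H2087 and 24.6% in H596. The 2 from 54421768, which is 1841 bases downstream, made up 19.5% and 46.6%. In FPKM, the first start had 1.66 in H2087 and 3.98 in H596, and the second 0.471 and 7.55. By this estimated division, the downstream start, with 47 counts in H2087 and 890 in H596, thus held the larger share in H596. The 250 bases of hg19 before each of these starts are shown for comparison, on the minus strand with the same motifs in capitals.
BMP4 first start, chr14:54423610-54423859: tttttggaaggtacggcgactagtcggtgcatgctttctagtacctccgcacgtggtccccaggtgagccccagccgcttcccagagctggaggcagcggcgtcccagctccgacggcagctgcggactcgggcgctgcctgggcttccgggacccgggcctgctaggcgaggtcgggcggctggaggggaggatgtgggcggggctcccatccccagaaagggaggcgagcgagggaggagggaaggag
BMP4 downstream start, chr14:54421769-54422018: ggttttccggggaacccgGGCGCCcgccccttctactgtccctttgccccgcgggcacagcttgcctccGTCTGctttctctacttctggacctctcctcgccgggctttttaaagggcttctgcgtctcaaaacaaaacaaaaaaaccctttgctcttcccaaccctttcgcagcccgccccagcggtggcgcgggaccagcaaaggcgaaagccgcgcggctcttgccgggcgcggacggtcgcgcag

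The window before the downstream start held 1 GGCGCC, at 232 bases before the start, and 1 CAGAC on the other strand, at 181 bases before it. The window before the first start held 0 of the 4 motifs. All 250 bases before the downstream start lie in a GENCODE exon of an unnamed gene on the plus strand. The windows had 25 and 21 CpG dinucleotides, respectively, against a median of 11 over all RefSeq promoters.

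In the receptors, the main transcript was the same in both libraries and its estimated share differed. NM_003242 of TGFBR2 made up 68.5% of the gene value in H2087 and 88.6% in H596. The longer NM_001024847 had FPKM values of 2.81 (H2087) and 0.457 (H596). NM_004612 of TGFBR1 made up 72.8% and 91.4%, while NM_001306210 had 211 counts in H2087 and 0 in H596, and NM_001130916 had 0 and 114. NM_001306210 and NM_004612 have the same start and end, with lengths of 6527 and 6515 bases, so their counts rest on how shared reads were divided. In ID1, the shares were alike: NM_002165 made up 91.1% in H2087 and 91.6% in H596. TGFB1, INHBA, BMP7, TGFBI and ID3 each had 1 listed transcript.

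**Figure D4:**
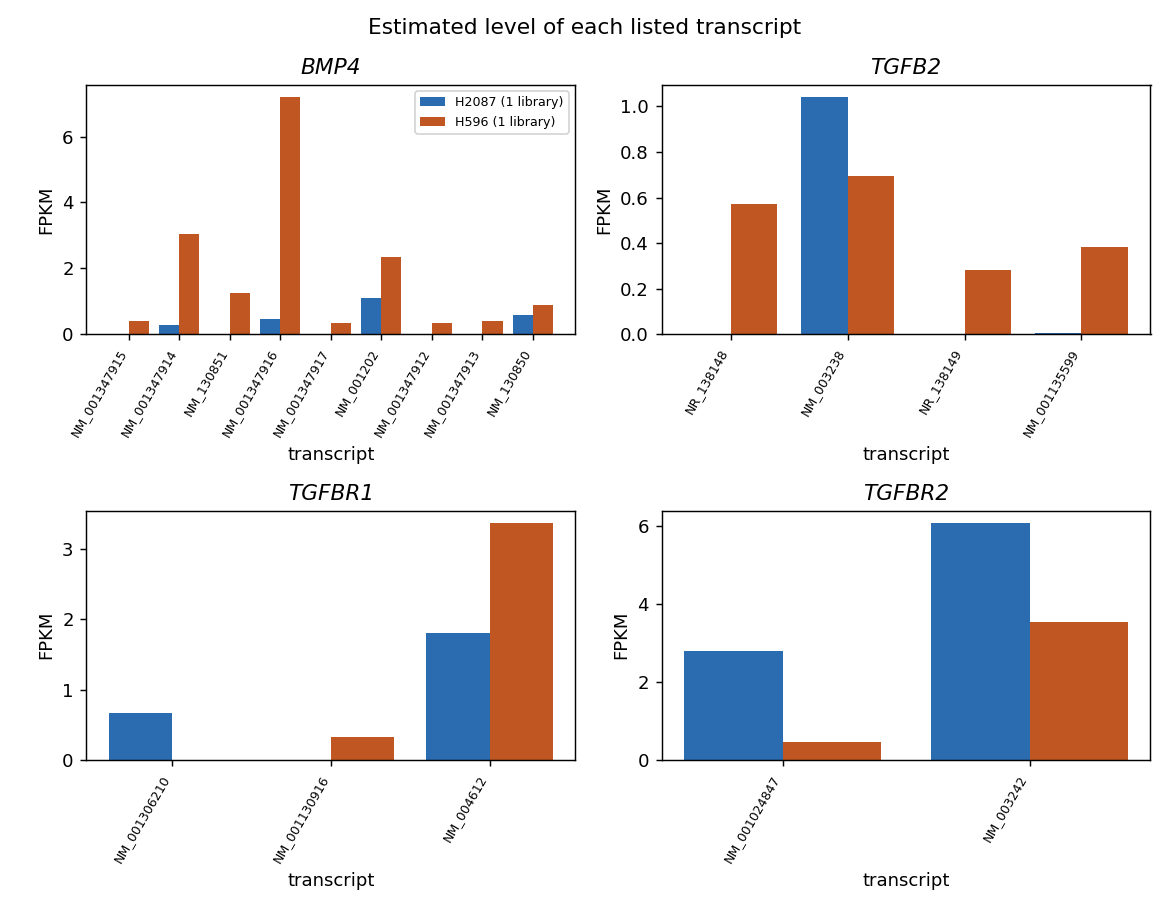
Estimated FPKM of each listed transcript of BMP4, TGFB2, TGFBR1 and TGFBR2 in H2087 and H596 (bars, 1 library each, no error shown). BMP4 is highest for NM_001347916 in H596 and for NM_001202 in H2087, and the TGFB2 transcripts NR_138148 and NR_138149 are seen in H596 alone.

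The 10 genes lie on 8 chromosomes, with TGFB2 and ID3 on chromosome 1 and BMP7 and ID1 on chromosome 20. For each, the 20 nearest genes compared, 10 on either side, were examined. Around BMP7 their median was 1.11, and 13 of the 20 were at least 2-fold higher in H596. Around INHBA it was 0.94, with 10 of 20 higher. Around TGFBR1 and TGFB2 it was 0.55 and 0.32, with 9 and 4 of 20 higher. Around ID1, ID3 and BMP4 it was 0.49, -0.04 and 0.02, with 5, 2 and 2 of 20 higher. Of all genes compared, 18.2% were at least 2-fold higher, and the median was 0.12. TGFB1 and TGFBR2 went against their neighbours, which had medians of 1.08 and 0.58, and so did TGFBI, whose neighbours had a median of -0.52. Whether copy number or other features of these regions take part in the values was not tested.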

How the data were processed

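RNA-seq was analysed for 1 library of H2087 and 1 of H596 cells. According to the methods and the submitters' processing notes, total RNA was made into stranded mRNA libraries and reads were aligned to hg19 with HISAT2 2.0.5 and quantified with StringTie 1.3.3b. The authors deposited estimated counts as whole numbers, and how these were derived is not stated. The authors also deposited FPKM values, which scale each transcript by its length and the library size.

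Where a symbol had more than 1 row (2 extra rows), the row with the higher mean FPKM was kept. Differences of log2(FPKM + 1), H596 minus H2087, were taken for genes whose mean FPKM reached 1, and a difference of at least 1 was called 2-fold. With 1 library per cell line, no test was made. Intervals were computed with scipy 1.17.1 and TMM factors with edgeR 4.0.16 (R 4.3.3). The FPKM worth of 3 counts in a library at 0 was scaled from the other library by 1.18, the median over 2302 genes with 1 transcript. The calls and intervals were tested on simulated data. Promoter sequence was read from GRCh37 and from the RefSeq table (GRCh38.p14), in which 9 of the 10 genes were found and BMP7 was not. The alternatives were TPM, TMM, centring, another pseudocount, CPM, single transcripts, other minimum levels and 4-fold.

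The genes and lists were chosen with earlier results of these data known. Named were the 10 genes, transcripts with at least 5% of a gene's FPKM, overlapping genes, and up to 4 genes per list by level or by difference. Others named were chosen after their values were seen, as were the 20 neighbouring genes. They are PMEPA1, ATOH8, MSX1, MSX2, HEY1, BMP5, BMP8B, SMAD9, NOG, GREM1, CHRD, SOSTDC1, BMPER, SFTPB, SFTPC, DSG3, COL1A2, PTPRC and CD3E.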

Additional observations from a re-analysis of the deposited data

How the results depend on the processing

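Of the 10 genes, 5 differed at least 2-fold as reported, and 5 to 7 did so with TPM, TMM scaling, centring, a pseudocount of 0.1, CPM, single transcripts or no minimum level. With a minimum mean FPKM of 10, the number was 3, since 3 genes were then compared, and with 4-fold it was 4. Of the genes of all lists, 33 differed, against 9 with a minimum of 10 and 20 with 4-fold; of all genes, 4226 differed, against 1986 and 1322. With an FPKM of at least 10 in place of 1, 3 of the 10 genes passed in H2087 and 4 in H596. Counts fell under the stricter settings by construction.

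ID1, ID3, BMP4, BMP7 and TGFBI kept their direction and stayed past 2-fold under the 6 alternatives run for single genes. TGFB2 reversed with its highest single transcript, to -0.27 from 0.52, since the transcript values divide the gene value. TGFB1 lay between -1.01 and -0.79 and TGFBR2 between -1.14 and -0.65, so that their side of 2-fold depended on the setting. INHBA lay between 0.90 and 2.99. The highest values of INHBA and BMP7, 2.99 and 5.74, came with a pseudocount of 0.1, which shrinks low genes less. No paired analysis or leave-one-out was possible because both cell lines had 1 library. Depth limits the values of INHBA, BMP2, BMP3, BAMBI and FST in H2087, which rest on 4 to 16 counts.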
